A study of Arabidopsis thaliana with 15 samples.

Results

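The loci described here are the longest expressed genes of Arabidopsis thaliana, those that span 9000 bases or more from the first to the last base of the gene. They were chosen by the listed length, by an identifier on chromosomes 1 to 5 and by a summed count of 150 or more over the 15 libraries, and 7 loci, mainly of nuclear pore and mRNA export factors, were left out by name. This gave 147 loci of the 33602 listed. Of the 170 loci of that length, 16 had a summed count under 150, and most of these are annotated as pseudogenes. The shortest loci inside the limit were KEG at 9026 bases, PIE1 at 9037 and NRPA1 at 9069, and those just outside were AT3G30749 at 8989, AT5G22770 at 8987 and AT1G50140 at 8968. The lowest summed counts inside the limit were 169 for GSL09, 209 for AT3G60920 and 223 for XIA.

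RNA was sequenced from whole Col-0 seedlings, grown for 2 weeks in continuous white light at 22 °C, of the wild type and of eds4 -/-, a mutant of the nuclear pore scaffold protein NUP205. Polyadenylated RNA of whole seedlings was compared in a profiling experiment (wild type n = 4, eds4 n = 3). A distribution experiment held whole seedlings, called total RNA here, and nuclei purified by fluorescence-activated sorting, labelled nuclear RNA, with n = 2 for each genotype and RNA. The labels do not say what the eds4 allele is, nor whether replicates were separate cultures. The p-values therefore cover the spread between libraries alone, which may be technical. Levels are given as CPM, each library's counts brought to a common scaled total. The scaling sets the typical gene to no change, so each difference is relative to that gene. Wild type seedling replicate 4 stood apart from the other wild type seedlings at the long loci, and values without it are given where it moves a result. At the EDS4 locus itself, whole eds4 seedlings had 35.3 ± 5.95 CPM (SD, n = 3) against 73.4 ± 8.43 CPM (SD, n = 4) in the wild type, while the nuclei had 61.0 ± 2.13 against 57.0 ± 12.1 CPM (SD, n = 2 each).

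Transcripts are spliced before they leave the nucleus, and mature mRNA passes through the nuclear pore complex bound to export factors. A long gene takes longer to transcribe, and a gene with many introns needs many splicing events before its mRNA is complete. Arabidopsis genes are compact, and the few that are this long encode large multidomain proteins: kinases of the TOR and ATM family, chromatin remodelling ATPases, callose synthases, myosins, and proteins built of long helical repeats.

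The 147 loci had a median length of 10777 bases, with ATM the longest at 31258 bases. Their effective length, which the deposited tables give beside the length but do not define, had a median of 6173 bases. It is read here as the exonic bases of the locus, an assumption on which the non-exonic shares and the levels per kb rest. The remainder, called non-exonic, was 44.5% of the locus at the median, against 28.3% over all 22024 loci tested in every comparison. The reference models gave a median of 29 exons, up to 77 in ATM. In all, 144 were protein-coding genes and 3 were pseudogenes with a single uninterrupted block (AT1G47860, AT3G60965 and AT5G28263). They lay on all chromosomes, 46 of them on chromosome 1 and 19 on chromosome 4.

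The boundaries of the longest intron are shown for 6 loci on which the results turn. By CPM, 4 were higher in nuclei than in total RNA (ATM, AT2G36810, GCN2, AT4G30990) and 2 were lower (SUS2 and the clathrin heavy chain gene AT3G11130). Each sequence holds 10 bases of exon and 20 of intron, 5′ to 3′ in the sense of the transcript. They were taken from the RefSeq annotation of TAIR10.1, and capitals mark the terminal dinucleotide of the intron. The introns lie at chr3:17823492-17824230 (ATM, + strand, 739 bases), chr2:15434938-15435443 (AT2G36810, - strand, 506 bases), chr3:21953562-21953953 (GCN2, + strand, 392 bases), chr4:15084817-15085339 (AT4G30990, + strand, 523 bases), chr1:30123583-30123823 (SUS2, + strand, 241 bases) and chr3:3488450-3489049 (AT3G11130, - strand, 600 bases).
ATM intron 60 donor: tgttcgagtgGTacgttaatctatatttct
ATM intron 60 acceptor: gctaattcttctttctacAGgtatttcggc
AT2G36810 intron 16 donor: ccatctgaagGTaagaccatataacataac
AT2G36810 intron 16 acceptor: agctacaaaatttctcttAGgcaaaagggg
GCN2 intron 11 donor: ggatagttcgGTaagtgagaaactgttcat
GCN2 intron 11 acceptor: gctcgttatgaggtactcAGagaagtagca
AT4G30990 intron 3 donor: agaatggaggGTatgtttgattttgttgcc
AT4G30990 intron 3 acceptor: atttgattggttgagtgcAGgaactgaata
SUS2 intron 14 donor: agatctggaaGTaagtatcatacttgtgta
SUS2 intron 14 acceptor: cgtgtataaaaatatgacAGgattcttggg
AT3G11130 intron 10 donor: agaaaatctgGTatgtgataattatcttgg
AT3G11130 intron 10 acceptor: attcaattttgatgttacAGgttgtccagc

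All 6 carry the usual GT and AG ends, as did 98.6% of the 4292 introns of the 147 loci, and 1.42% began with GC. The donor letters GTAAG opened 15.2% of the introns in the loci that were higher in wild type nuclei, 15.1% in those that were lower and 14.2% in those called neither way. These shares are descriptions and were not tested.

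The most abundant of the long loci per kb of effective length in wild type seedlings was GLT1, NADH-dependent glutamate synthase of nitrogen assimilation, at 99.8 CPM per kb. It was followed by the repeat protein gene AT4G28080 at 83.4, AT1G01320 at 66.4, the clathrin heavy chain gene AT3G11130 at 54.8, and the peptidase gene TPP2 at 47.8 CPM per kb. SEX1, which phosphorylates starch for its breakdown, had 42.9 CPM per kb, and the median of the 147 loci was 7.54. Together the loci took 0.856 to 1.10% of the counts of a wild type seedling library, and 0.815 to 1.01% of the counts of an eds4 one. In the other experiment they took 0.921 and 0.707% in wild type total RNA, 0.580 and 0.657% in eds4 total RNA, 1.08 and 0.893% in wild type nuclei, and 1.09 and 0.883% in eds4 nuclei.

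Nuclei were compared with total RNA first, which asks which transcripts are relatively more frequent in the nucleus. In the wild type, 25 of the 146 long loci that passed the filter were higher in nuclei and 7 were lower, at a Benjamini-Hochberg adjusted p under 0.05 over all loci in the quasi-likelihood test of edgeR. In such bulk samples, fewer cells of a type and less RNA per cell cannot be told apart. Of all 21484 loci tested, 15.1% were higher and 15.6% lower. In eds4, 37 long loci were higher and 2 lower, where 15.6% of all loci were higher and 14% lower. Against that background the long loci were seldom called lower in either genotype, and the number called higher was near it in the wild type and above it in eds4. The median log2 difference of the long loci was 0.09 in the wild type and 0.41 in eds4, and over all loci it was -0.00 and 0.09. The wild type value turned to -0.14 without total RNA replicate 2, and the eds4 value was 0.18 without nuclei replicate 1. With an offset for the trend of each library on effective length they were -0.14 and -0.11.

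GCN2, a protein kinase that restrains translation when amino acids are short, was among the loci that were much higher in nuclei. It had 22.0 and 18.2 CPM in wild type total RNA and 70.6 and 79.9 CPM in wild type nuclei. In eds4 it had 19.1 and 19 CPM in total RNA and 77.6 and 73.6 CPM in nuclei. The groups did not overlap, and the log2 difference was 1.91 (SE 0.23, edgeR adjusted p = 0.000468) in the wild type and 1.99 (SE 0.23, edgeR adjusted p = 0.000434) in eds4.

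ATM, the kinase that signals DNA double-strand breaks, had 39.0 and 25.9 CPM in wild type total RNA and 83.3 and 83.1 CPM in wild type nuclei. In eds4 it had 21.7 and 17.5 CPM in total RNA against 92.0 and 73.8 CPM in nuclei. The nuclear values were alike in the 2 genotypes and the total RNA values were lower in eds4. Its log2 difference of nuclei and total RNA was 1.36 (SE 0.27, edgeR adjusted p = 0.00439) in the wild type and 2.08 (SE 0.27, edgeR adjusted p = 0.000640) in eds4. Its locus overlaps AT3G48195, and without strand information shared reads cannot be assigned.

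AT4G30990, annotated as an ARM repeat protein, had 46.0 and 34.7 CPM in wild type total RNA and 126 and 149 CPM in wild type nuclei. In eds4 it had 24.0 and 22.2 CPM in total RNA and 64.8 and 63.2 CPM in nuclei. Both kinds of RNA were lower in eds4, and the log2 difference of nuclei and total RNA was 1.77 (SE 0.24) in the wild type and 1.47 (SE 0.24) in eds4. AT3G50380, annotated as a putative vacuolar protein sorting protein, had the same order of levels. It had 45.1 and 36.6 CPM in wild type total RNA, 144 and 139 CPM in wild type nuclei, 24.3 and 24.5 CPM in eds4 total RNA, and 96.8 and 68.6 CPM in eds4 nuclei.

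Higher in nuclei of both genotypes were 20 loci, which is 80.0% of the 25 in the wild type and 54.1% of the 37 in eds4. The same overlap was not computed over all loci, so it cannot be read as particular to the long ones. The 2 comparisons have no library in common, though they were fitted together. Among the 20 were TAF2, a subunit of the general transcription factor TFIID (log2 difference 1.64, SE 0.23, in the wild type and 1.72, SE 0.23, in eds4), and the ARM repeat gene AT2G36810 (1.69, SE 0.27, and 2.17, SE 0.28). AT5G24740, related to AT3G50380 by annotation, had 1.15 (SE 0.25) and 1.79 (SE 0.26). The BEACH and WD40 gene AT4G02660 had 1.72 (SE 0.47) and 2.06 (SE 0.48), at 2.57 and 3.64 CPM in wild type total RNA. ESP, the separase that cleaves cohesin at anaphase, passed in eds4 with 1.84 (SE 0.42, edgeR adjusted p = 0.00943) and not in the wild type with 0.89 (SE 0.41, edgeR adjusted p = 0.129).

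The 3 pseudogenes were set apart in structure, since they have no intron. Of 3908 other pseudogenes listed, 406 passed the filter, which a locus can pass by its level in nuclei alone. Of these 406, 120 passed as higher in wild type nuclei and 63 in eds4, with median log2 differences of 3.67 and 2.72. Because the filter favours such loci, these values cannot show whether the 3 long pseudogenes differ from pseudogenes in general. AT5G28263 had 2.59 and 4.32 CPM in wild type total RNA and 57.3 and 53.3 CPM in wild type nuclei, the highest log2 difference of the long loci at 4.00 (SE 0.33, edgeR adjusted p = 0.000351). In eds4 it had 3.28 and 2.50 CPM in total RNA and 30.8 and 30.4 CPM in nuclei, a log2 difference of 3.40 (SE 0.32, edgeR adjusted p = 0.000358). A near-identical copy elsewhere covers 11.7% of this locus, so some of its reads are of uncertain origin. AT3G60965 was higher in nuclei of both genotypes (1.89, SE 0.48, and 2.02, SE 0.48), and it overlaps AT3G60961, with which reads may be shared. AT1G47860 was higher in wild type nuclei (1.17, SE 0.29, edgeR adjusted p = 0.0138), while in eds4 its log2 difference was -0.17 (SE 0.29, edgeR adjusted p = 0.694).

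Few long loci were lower in nuclei. SUS2, which encodes PRP8 at the core of the spliceosome, had 213 and 162 CPM in wild type total RNA and 65.4 and 69.8 CPM in wild type nuclei. In eds4 it had 131 and 140 CPM in total RNA and 74.4 and 60.7 CPM in nuclei. The log2 difference was -1.47 (SE 0.25, edgeR adjusted p = 0.00198) in the wild type and -1.0 (SE 0.24, edgeR adjusted p = 0.0123) in eds4. SUS2 and the clathrin heavy chain gene AT3G11130, which forms the coat of endocytic vesicles (-0.92, SE 0.27, and -0.88, SE 0.27), were the 2 that passed in both genotypes. In eds4 the edgeR adjusted p of SUS2 was 0.0695 without nuclei replicate 2 and 0.0614 without total RNA replicate 2. The call of AT3G11130 in eds4 was lost without any 1 of the 4 libraries (edgeR adjusted p 0.0634 to 0.133), and in the wild type it was lost without nuclei replicate 1, total RNA replicate 1 or total RNA replicate 2 (0.0916 to 0.147).

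The other 5 passed in the wild type and not in eds4, and the difference between genotypes did not pass for any of them. They were CHR4, a chromatin remodeller (-1.03, SE 0.24, in the wild type and -0.20, SE 0.24, in eds4), EFS, a histone methyltransferase that controls flowering time (-0.94, SE 0.32, and 0.00, SE 0.32), and DME, a glycosylase that removes methylated cytosine (-0.92, SE 0.24, and -0.28, SE 0.24). AIR9, a microtubule-associated protein, had -0.85 (SE 0.23) and -0.50 (SE 0.23), and AT4G36080, which the annotation places with the phosphatidylinositol kinase relatives, had -0.81 (SE 0.26) and -0.08 (SE 0.26). The wild type call of EFS was near the threshold (edgeR adjusted p = 0.0495). With the wild type libraries fitted alone, EFS (edgeR adjusted p = 0.0786) and AT4G36080 (0.0633) did not pass. Without single libraries the wild type value of EFS ran from -1.53 to -0.53. CHR4 had 35 and 43 CPM in eds4 total RNA against 75.3 and 62 CPM in the wild type, without overlap, while its nuclei had 31.5 and 36.5 against 30.5 and 36.8 CPM. AIR9 had 64 and 53.9 CPM in eds4 total RNA against 74.9 and 60.4 CPM, and these overlapped.

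**Figure D1:**
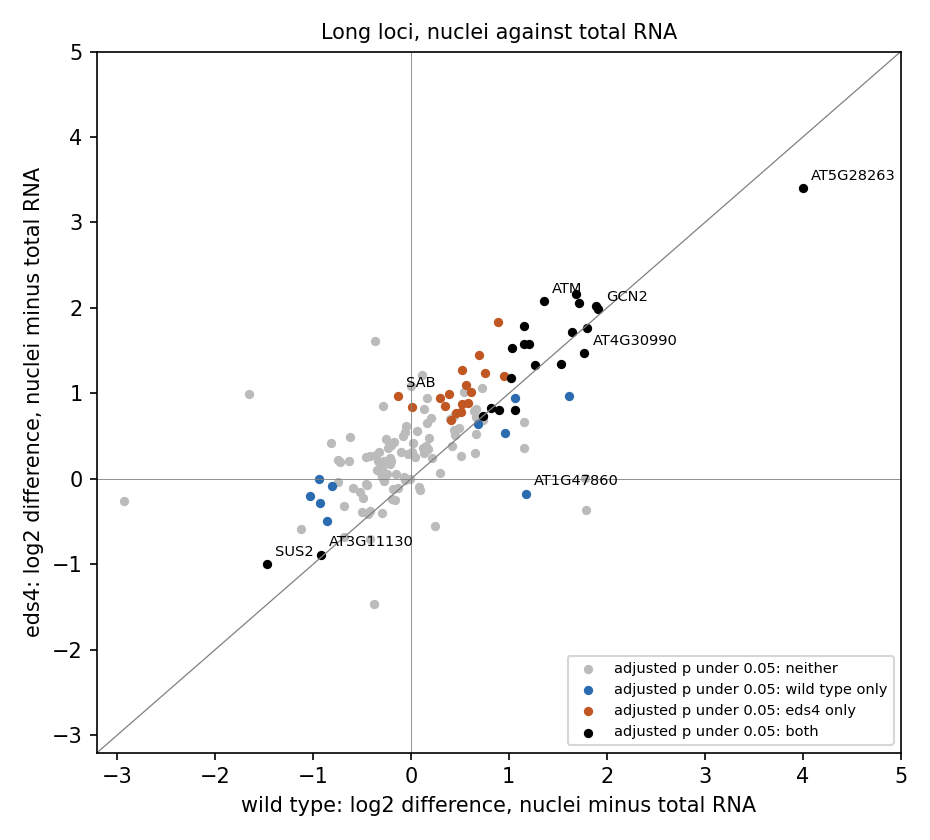
Log2 difference of nuclei and total RNA in the wild type (horizontal axis) and in eds4 (vertical axis) for the 146 long loci tested, coloured by the genotype in which the adjusted p was under 0.05; the diagonal marks equal values. Most loci lie above the diagonal, 20 were higher in nuclei of both genotypes, and SUS2 and AT3G11130 were lower in both.

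The calls were also counted by effective length, without a steady order. In the wild type 12 of 30 tested loci with an effective length under 5000 bases were higher in nuclei, 4 of 67 at 5000 up to 7000, and 9 of 49 at 7000 or more, and 0, 4 and 3 were lower. The median log2 difference in these classes was 0.68, 0.02 and -0.17. In eds4 10, 14 and 13 were higher and 0, 1 and 1 lower, with medians of 0.76, 0.38 and 0.31. Of all 246 tested loci with an effective length of 5000 up to 7000 bases, 21.5% were higher in wild type nuclei and 24.4% in eds4. Of all 71 at 7000 or more, 23.9% and 22.5% were higher. The 4 of 67 in the wild type are thus few beside all loci of that effective length. By non-exonic share, 5 of 25 loci under 30%, 5 of 67 at 30 up to 50% and 15 of 54 at 50% or more were higher in wild type nuclei, and 5, 13 and 19 in eds4. Over all loci 15.1% and 15.6% were higher, and shares over all loci of these non-exonic classes were not computed. The 25 loci higher in wild type nuclei were 53.7% non-exonic at the median and the 7 lower were 33.7%. The Spearman correlation across the 146 loci, given as a description, was 0.25 between non-exonic share and nuclear-to-total difference in the wild type and 0.26 in eds4, where the loci share the same 8 libraries. Over all 21484 loci it was 0.04 and -0.03. Whether unspliced RNA was counted over the exons of these loci was not tested.

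By length, the share of loci that were higher in wild type nuclei went from 7.38% under 1000 bases to 27.8% at 7000 up to 9000 bases and was 17.5% at 9000 or more, the 7 loci left out by name and tested low-count loci included. The share that was lower was highest at 19.7%, at 1000 up to 2000 bases, and 4.38% at 9000 or more. In eds4 the share higher was 32.6% at 7000 up to 9000 bases and 24.4% at 9000 or more. The longest loci were therefore not those most often higher in nuclei, but they were those least often lower.

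**Figure D2:**
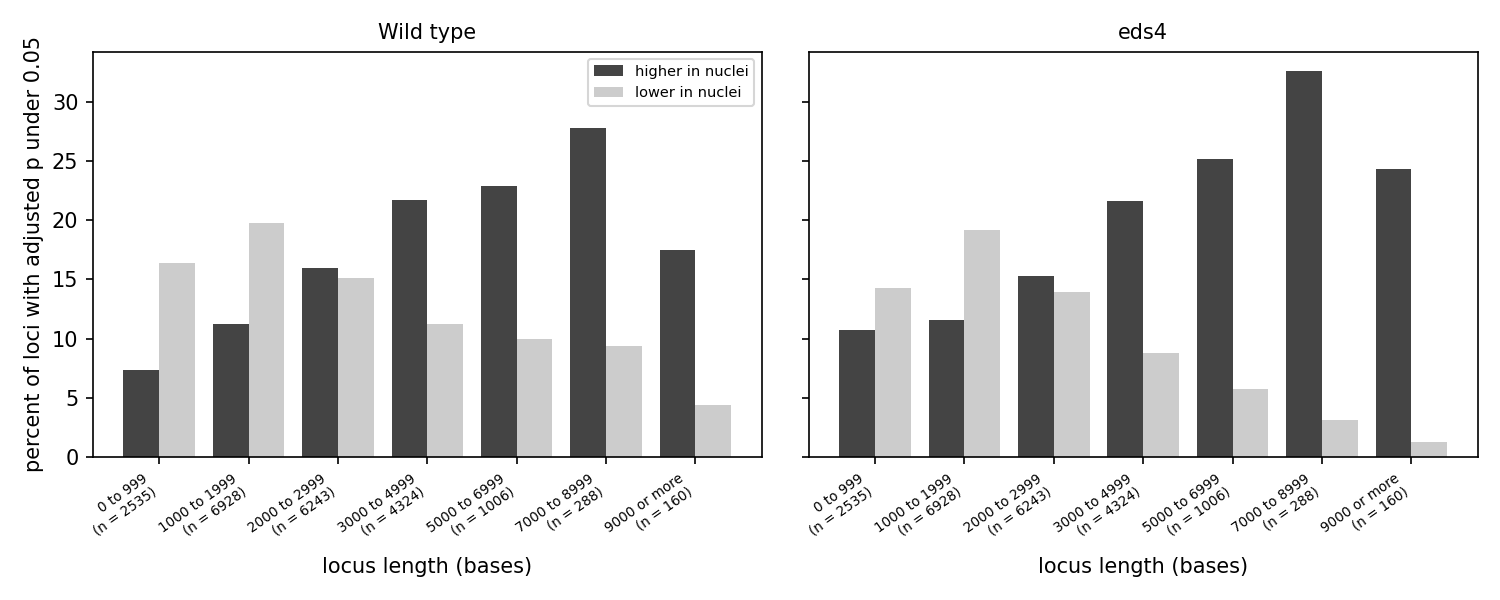
Percent of tested loci with an adjusted p under 0.05 that were higher (dark bars) or lower (light bars) in nuclei than in total RNA, by class of locus length, with the number of loci under each class, for the wild type (left) and eds4 (right). The share higher is 27.8% and 32.6% at 7000 up to 9000 bases, and the share lower is 4.38% and 1.25% at 9000 bases or more.

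The counts of calls depended on single libraries. In the wild type they were 8 higher and 3 lower without total RNA replicate 2, 11 and 1 without total RNA replicate 1, and 17 and 4 without nuclei replicate 2. In eds4 they were 13 and 1 without total RNA replicate 1, 17 and 0 without total RNA replicate 2, and 18 and 3 without nuclei replicate 1. With an offset that takes out the trend of each library on effective length, 16 were higher and 18 lower in the wild type, and 17 and 11 in eds4. Of the named calls, GCN2, AT2G36810 and AT5G28263 passed in both genotypes under every alternative run. AT4G30990, AT3G50380, TAF2 and SUS2 did so in the wild type, and ATM and AT5G24740 in eds4. For AT4G30990, AT3G50380, TAF2, ATM and AT5G24740 the alternatives were computed in that genotype alone.

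The sorted nuclei also differed from total RNA in markers of cell types. The 6 mesophyll markers summed to 30504 to 36749 CPM in wild type total RNA and 4984 to 7242 CPM in wild type nuclei, and to 32474 to 35682 and 4379 to 5305 CPM in eds4. The 4 xylem markers summed to 56.1 to 56.3 CPM in wild type total RNA and 7.83 to 12.0 CPM in nuclei, with AT1G43790 at 0 in the nuclei of both genotypes. The 4 endodermis markers went the other way, from 49.1 to 50.0 CPM in wild type total RNA to 90.5 to 111 CPM in nuclei, and from 37.2 to 56.2 to 63.3 to 78.8 CPM in eds4. Phloem, epidermis and dividing cell markers were lower in nuclei of both genotypes without overlap. Guard cell markers were lower and root hair markers higher in wild type nuclei, and both overlapped in eds4. The part of these cell types in the ratios of nuclei and total RNA was not tested.

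The next comparison asked whether long loci differ between eds4 and the wild type. In seedlings of the profiling experiment 0 of the 147 passed an adjusted p of 0.05 in edgeR, where 1.34% of all loci did. At an unadjusted p under 0.05, 54 were lower in eds4 and 2 higher, and 7.62% of all loci were lower. DESeq2 called 6 lower, against 2.32% of all loci. The differences were small and mostly in the same direction. The median log2 difference of the 147 was -0.24, and 135 were below 0, against a median of 0.00 and 50.0% below 0 over all 22202 loci. In 14 of them all eds4 libraries lay below all wild type libraries, against 6.93% of all loci. Of the marker lists, mesophyll summed to 21413 to 25134 CPM in wild type seedlings and 15416 to 21328 CPM in eds4, and phloem to 196 to 208 and 167 to 178 CPM, without overlap. The other lists overlapped, and the part of cell types in the difference was not tested.

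Total RNA of the distribution experiment gave the same direction at a larger size. Of 146 loci 0 passed in edgeR, where 0.00465% of all loci did, and 26 were lower and 1 higher at an unadjusted p under 0.05, with 1.42% of all loci lower. DESeq2 called 0 of them, and 0.0326% of all loci, lower. The median was -0.45 with 138 of 146 below 0, against -0.01 and 51.0% below 0 over all loci. In 88 loci both eds4 libraries lay below both wild type libraries, against 20.7% of all loci. In 130 loci the difference was below 0 in both experiments, which have no library in common. With 91.8% and 94.5% of the long loci below 0 in the 2 experiments, most of this overlap follows from those shares alone. It was not computed over all loci. Markers that did not overlap in total RNA were higher in eds4: phloem at 87.3 to 93.2 CPM in the wild type and 118 to 122 in eds4, xylem at 56.1 to 56.3 and 73.0 to 77.4, dividing cell at 72.6 to 82.4 and 101.1 to 103.3, and epidermis at 704 to 717 and 771 to 922 CPM. Mesophyll markers overlapped, and none of these was tested for its part in the difference.

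In nuclei the difference was smaller than in total RNA. Of the 146 loci 0 passed in edgeR, where 0.363% of all loci did, and 9 were lower and 2 higher at an unadjusted p under 0.05, with 5.45% of all loci lower. DESeq2 called 3 lower, against 1.64% of all loci. The median was -0.09, with 98 of 146 below 0. It was -0.18 with DESeq2, -0.23 without eds4 nuclei replicate 1 and 0.06 without eds4 nuclei replicate 2. In 30 loci the eds4 libraries lay below the wild type libraries, against 18.8% of all loci. Without overlap, epidermis, guard cell and dividing cell markers were higher in eds4 nuclei (dividing cell at 36.1 to 39.2 CPM in the wild type and 53.5 to 54.7 in eds4), and endodermis and root hair markers were lower, and their part was not tested.

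AT4G30990 had log2 differences below 0 in all 3 comparisons, none of which passed in edgeR. In seedlings it had 46.5, 42.9, 57.3 and 41.3 CPM in the wild type and 28.5, 34.1 and 37.3 CPM in eds4, with no overlap. The log2 difference was -0.50 (SE 0.14, edgeR adjusted p = 0.133) in seedlings, -0.81 (SE 0.24, edgeR adjusted p = 1, and 0.566 in DESeq2) in total RNA and -1.10 (SE 0.24, edgeR adjusted p = 0.0878) in nuclei. It passed in DESeq2 in seedlings and nuclei and in the joint fit of the 11 libraries of whole seedlings, where its log2 difference was -0.61.

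EFS had 50.7, 49.9, 50.1 and 44.5 CPM in wild type seedlings and 36.1, 40.6 and 40.8 CPM in eds4, the smallest p of the long loci. Its log2 difference was -0.32 (SE 0.08, edgeR adjusted p = 0.106). CHR4 had 71.1, 66.2, 66.0 and 51.4 CPM in the wild type and 42.6, 49.2 and 50.9 CPM in eds4. UPL1, a ubiquitin ligase of the HECT type, had 115, 118, 117 and 85.5 CPM in the wild type and 70.6, 85 and 85.5 CPM in eds4. In all of these loci replicate 4 was the lowest wild type library.

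REV3, the catalytic subunit of the DNA polymerase that copies past lesions, had 16.1, 14.1, 16.1 and 13.2 CPM in wild type seedlings against 11.3, 11.8 and 11.9 CPM in eds4 (log2 difference -0.35, SE 0.10, edgeR adjusted p = 0.132). TOR, the growth-regulating kinase, had 70.6, 69.9, 69.1 and 54.2 CPM in the wild type and 46.7, 55.3 and 59.9 CPM in eds4, and its groups overlapped. BIG, which acts in auxin transport, had 157, 151, 157 and 125 CPM against 104, 118 and 131 CPM, which also overlapped.

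Of the few loci that were higher in eds4 seedlings, AT1G58602, of the class of disease resistance proteins with nucleotide-binding and leucine-rich repeat domains, had the largest difference. It had 171, 179, 187 and 140 CPM in the wild type and 225, 241 and 193 CPM in eds4, with no overlap (log2 difference 0.38, SE 0.12, edgeR adjusted p = 0.184). In total RNA it had 195 and 192 CPM in the wild type and 154 and 209 CPM in eds4, and there the groups overlapped. Its locus overlaps AT1G58561, with which reads may be shared. GMI1, named for its induction by gamma irradiation and mitomycin C, had 3.77 and 3.68 CPM in wild type total RNA and 6.62 and 7.31 CPM in eds4. In nuclei it had 4.06 and 4.63 against 9.10 and 7.38 CPM (log2 difference 0.93, SE 0.40, edgeR adjusted p = 0.333).

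**Figure D3:**
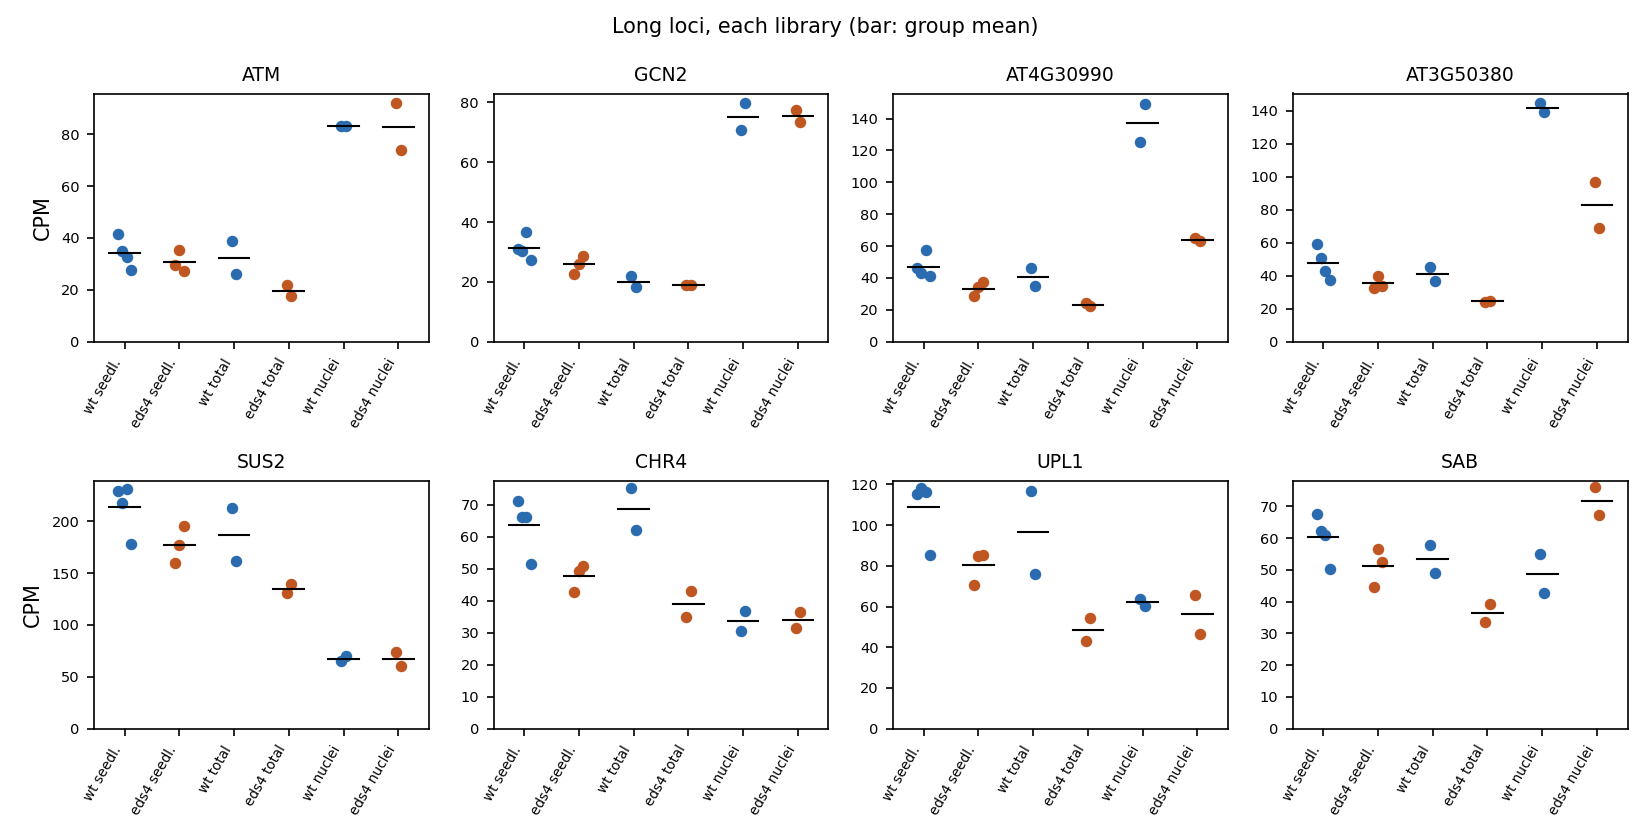
Level of 8 long loci in CPM in every library (points; blue wild type, orange eds4; wt seedl. and eds4 seedl. are seedlings of the profiling experiment), with a bar at each group mean. ATM, GCN2, AT4G30990 and AT3G50380 are higher in nuclei and SUS2 is lower, and in SUS2, CHR4 and UPL1 the lowest wild type seedling library lies at the level of eds4.

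The size of the genotype difference was graded with length in whole seedlings. The median log2 difference went from 0.11 in loci under 1000 bases through -0.06 at 3000 up to 5000 bases to -0.24 at 9000 or more in the profiling experiment, and from 0.15 through -0.10 to -0.43 in total RNA. In nuclei it was 0.20 under 1000 bases and -0.10 at 9000 or more, with -0.04 at 7000 up to 9000 bases. Within the long loci the Spearman correlation with effective length was -0.48 in seedlings over 147 loci, -0.36 in total RNA and -0.12 in nuclei over 146, as descriptions, since the loci share libraries. With the length of the whole locus it was -0.28 in seedlings and -0.25 in total RNA. The loci with an effective length under 5000 bases had a median of -0.15 in seedlings and -0.21 in total RNA, and those with 7000 or more had -0.33 and -0.55. The gradient therefore ran over all lengths and was not a property of the longest class alone.

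**Figure D4:**
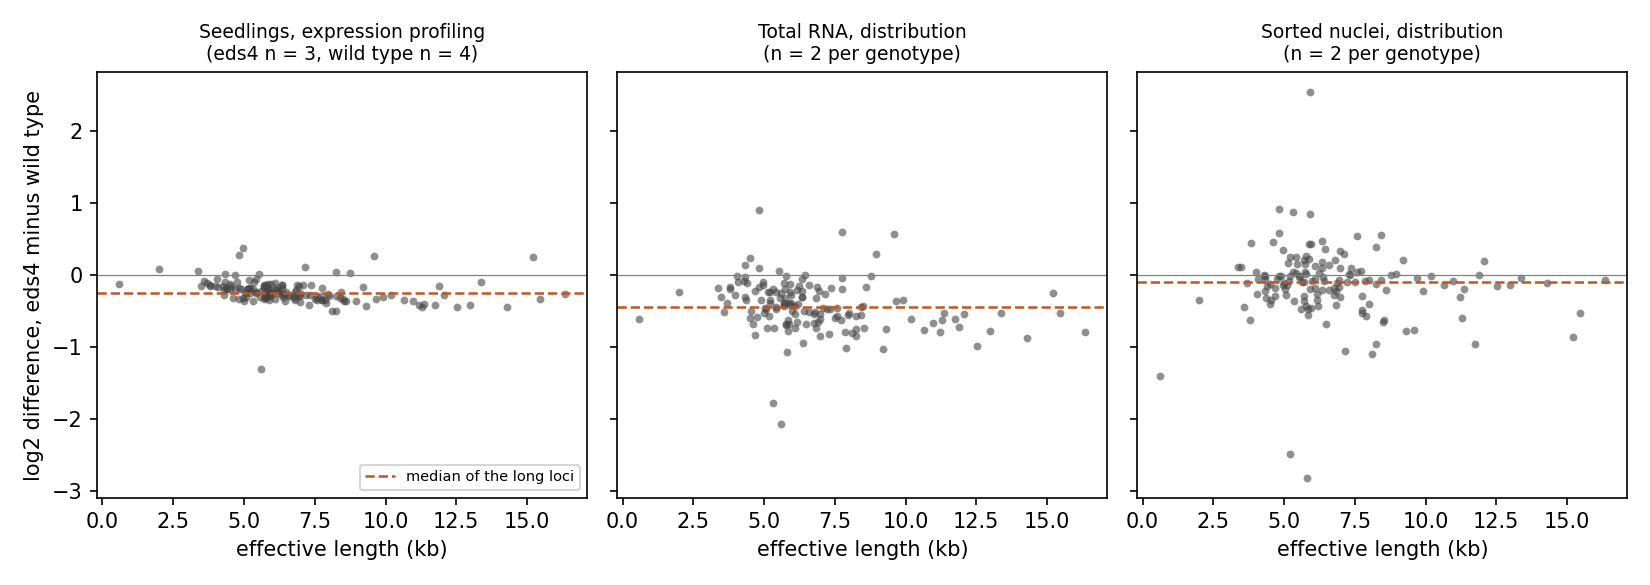
Log2 difference of eds4 and wild type against effective length in kb for each long locus, in seedlings (left, 147 loci), total RNA (middle, 146) and nuclei (right, 146); the dashed line is the median. The medians lie at -0.24, -0.45 and -0.09, and loci of greater effective length have lower values in seedlings and total RNA.

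Single libraries of the same genotype differed along the same gradient. In the profiling experiment the median log2 difference of the long loci from the wild type mean was 0.10, 0.04 and 0.08 in wild type replicates 1 to 3 and -0.23 in replicate 4. In eds4 it was -0.39, -0.19 and -0.13. Wild type replicate 4 thus lay within the range of the eds4 libraries, and without it the median log2 difference of the genotypes was -0.31. In the distribution experiment, set against the mean of wild type total RNA, the wild type replicates of total RNA lay at 0.18 and -0.18 and those of eds4 at -0.45 and -0.37. Without wild type total RNA replicate 1 the median log2 difference of the genotypes was -0.24, and without replicate 2 it was -0.63. The nuclei lay at 0.11 and 0.11 in the wild type and at 0.18 and -0.16 in eds4. With the offset for effective length the medians were 0.01 in seedlings, 0.05 in total RNA and 0.12 in nuclei, and AT1G58602 passed as higher in eds4 seedlings. RNA integrity was not given in the sources used here, and its part in the gradient was not tested.

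**Figure D5:**
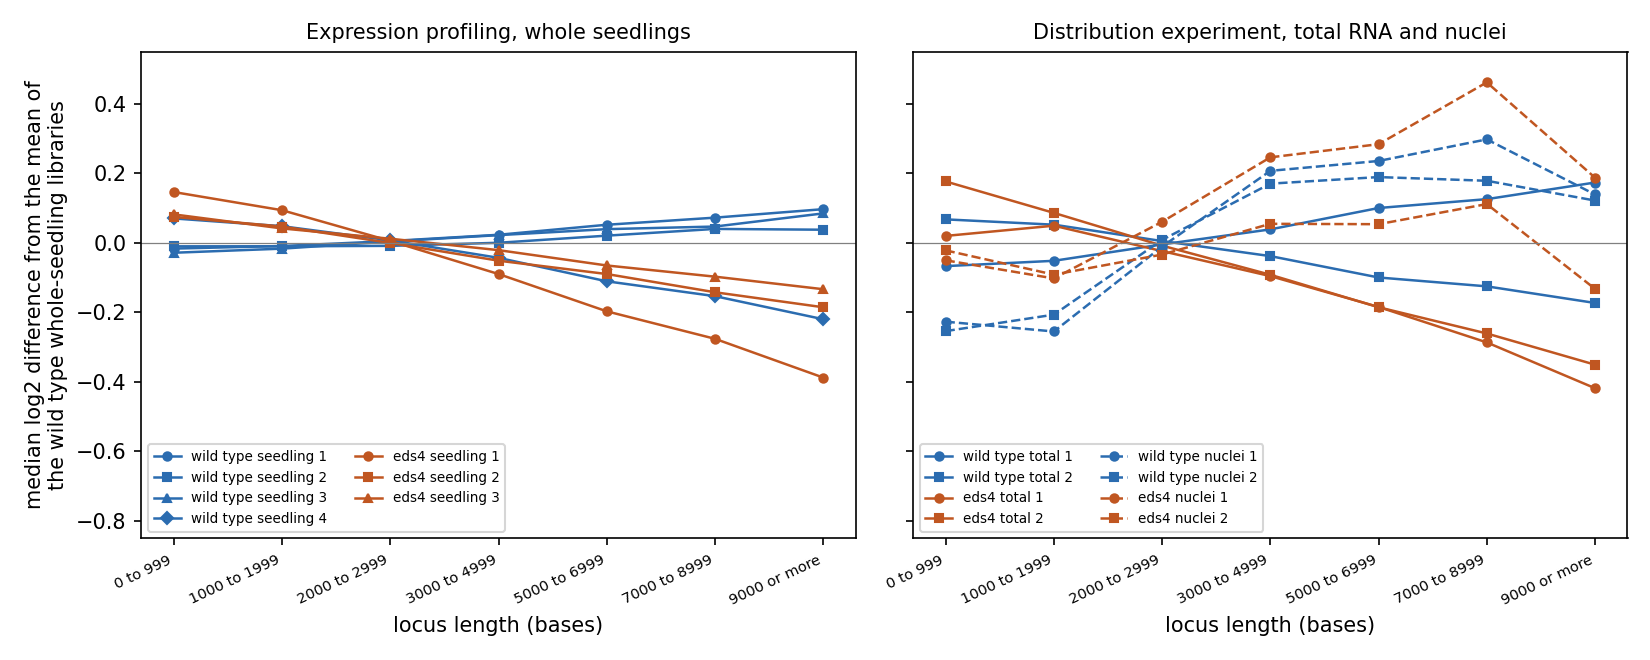
Median log2 difference of all loci in each class of locus length from the mean of the wild type whole-seedling libraries of the same experiment, by library (blue wild type, orange eds4; dashed lines are nuclei). Wild type seedling replicate 4 falls with length as the eds4 libraries do, and the total RNA replicates of the wild type lie on opposite sides of 0.

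The last comparison asked whether the nuclear-to-total difference itself differed between genotypes. It was larger in eds4 in 117 of the 146 loci, with a median difference of 0.33 on the log2 scale, against 0.04 over all loci, of which 52.3% were above 0. None passed: edgeR called 0 of the 146 long loci, and 0% of all loci. At an unadjusted p under 0.05, 5 were higher and 1 lower, close to the 3.7% of all loci that were higher. DESeq2 called 0 long loci, and 0.0884% of all loci, higher. The genotype medians above give its parts, -0.45 in total RNA and -0.09 in nuclei, and it lay between 0.11 and 0.52 when single libraries were left out.

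SAB, which acts in cell expansion, had the smallest unadjusted p in edgeR, 0.00800. It had 57.8 and 49.1 CPM in wild type total RNA, 54.9 and 42.7 CPM in wild type nuclei, 33.7 and 39.4 CPM in eds4 total RNA, and 76.1 and 67.2 CPM in eds4 nuclei. Its levels in eds4 were therefore lowest in total RNA and highest in nuclei, without overlap with the wild type in either. The difference of the nuclear-to-total values was 1.10 on the log2 scale (SE 0.33, edgeR adjusted p = 0.774). The pseudogene AT1G47860, described with the nuclear calls, differed in the other direction by -1.35 (SE 0.41) with an unadjusted p of 0.00845 and the same edgeR adjusted p of 0.774, and its DESeq2 adjusted p of 0.281 was smaller than the 0.443 of SAB.

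Families among the long loci are described by their counts and medians, beside the 91.8% of all long loci that were below 0 in seedlings and 94.5% in total RNA, with medians of -0.24 and -0.45. All 9 callose synthases, which make the glucan of cell plates and plasmodesmata, were below 0 in both whole-seedling comparisons, with medians of -0.22 in the profiling experiment and -0.38 in total RNA, and 0.03 in nuclei. Of the 9, 1 (GSL11, log2 difference of nuclei and total RNA 1.21, SE 0.37, in eds4) passed as higher in nuclei, where 15.6% of all loci did in eds4. All 8 myosins, the motors of organelle movement along actin, were below 0 in seedlings and 7 in total RNA, with medians of -0.21 and -0.37, and 0 passed between nuclei and total RNA. GSL09, XIA and CALS5 were at under 1 CPM in every seedling library, and the SE of their log2 differences in seedlings was 0.51, 0.43 and 0.49.

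All 7 chromatin remodelling ATPases were below 0 in both whole-seedling comparisons, with medians of -0.21 and -0.39, which is near the long loci as a whole. In seedlings 22 of 26 other genes of the family were also below 0. Of these 7, PKL, whose locus overlaps 2 others, passed as higher in wild type nuclei (0.69, SE 0.23), CHR4 as lower, and CHR5 (0.84, SE 0.23) and RGD3 (0.77, SE 0.26) as higher in eds4 nuclei. The 5 proteins of the TOR and ATM kinase family, ATR among them, had medians of -0.28 in seedlings and -0.61 in total RNA. The 3 catalytic subunits of DNA polymerases had medians of 0.52 and 1.22 between nuclei and total RNA in the wild type and eds4. Of the 3, 1 and 2 passed as higher in nuclei, as did 1 and 0 of 4 other genes of the family. That 1 was TIL2, which spans 13124 bases and was outside the long loci for its summed count of 82. Its mean was 1.74 CPM in wild type nuclei and 0.0507 CPM in wild type total RNA, and 0.112 and 0.0352 CPM in eds4. It passed the filter by its level in wild type nuclei, so its call there carries little weight. Of the 4 VPS13-like and pleckstrin homology proteins, AT3G50380, AT5G24740, AT1G48090 and AT4G17140, 2 passed as higher in nuclei in the wild type and 3 in eds4. Of the 9 ARM repeat proteins 2 and 5 passed as higher, against 14 and 20 of 108 other genes of that family. The share over all loci was 15.1% in the wild type and 15.6% in eds4, and families this small were not tested against it.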

How the data were processed

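The authors deposited raw read counts per locus in 3 tables with 15 libraries, each with a length and an effective length per locus. The submitters' processing notes name TAIR10, TopHat2 2.1.1 and SAMtools 1.3; the counting program and strand setting were not stated there or in the labels. Library totals were 37277300 to 51059295 counts in the profiling experiment and 12393243 to 31745372 in the distribution experiment. Loci were filtered by filterByExpr, scaled by TMM and tested with edgeR 4.0.16 in R 4.3.3 (quasi-likelihood F test, Benjamini-Hochberg over all loci, threshold 0.05). The 7 profiling libraries and the 8 distribution libraries were fitted separately, with a mean per group. Standard errors were derived from the log2 difference and its F. DESeq2 1.42.0, other scalings, filters and left-out libraries were alternatives. Introns were read from the RefSeq annotation of TAIR10.1; 69 of the 147 loci had the same start or end in it. Of the 147, 23 overlap another listed locus. Named loci are, per comparison, up to 8 of the largest calls in each direction with groups that do not overlap, or else the 3 smallest p in that direction; the 10 longest, the 10 most abundant per kb and the 10 with most non-exonic bases; the loci next to the length limit; and examples of families of 3 or more. The loci, families and markers were chosen with earlier results of these data known.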

Additional observations from a re-analysis of the deposited data

Results flagged for a closer look

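Among 47 named loci tested for a library apart from the other 3 of the wild type seedlings, 3 had 1, and chance flags about 1 in 20 such groups. TOR (AT1G50030) had 54.2 CPM in replicate 4 and 69.1 to 70.6 CPM in the others. UPL1 (AT1G55860) had 85.5 CPM against 115 to 118 CPM, and EFS (AT1G77300) had 44.5 CPM against 49.9 to 50.7 CPM, each in the same replicate. The long loci as a group had a median log2 difference of -0.23 from the wild type mean in that library. Without that library the median log2 difference of eds4 and wild type seedlings was -0.31 in place of -0.24.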

How the results depend on the processing

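With 2 to 4 libraries per group, single libraries limit these results. Counts of long loci called ranged from 11 to 22 in the wild type (32 with all libraries) and 14 to 34 in eds4 (39 with all libraries) between nuclei and total RNA when single libraries were left out, and genotype counts stayed at 0. Taking loci by an effective length of 5000 or more gave 76 of 247 loci in the wild type and 79 in eds4, and 3 in seedlings by genotype. Fitting the eds4 libraries alone gave 25. For the genotype in seedlings DESeq2 called 6, a fit of 11 whole-seedling libraries 3, the replicate block 5 and the offset for effective length 1; in nuclei DESeq2 called 3 and no low-count filter 2. Replicate numbers were compared by each library's deviations from its group mean over the loci, not by the levels themselves. These deviations correlated at 0.395, -0.0941 and 0.378 between same-numbered replicates of the profiling experiment. Differently numbered ones there ran from -0.57 to 0.401. In the distribution experiment same-numbered replicates gave -0.0295 to 0.238 between groups. With n = 2 per group, differently numbered ones have the same values with opposite sign. The numbers were not taken as pairs in either. The replicate block called 39 and 46 loci between nuclei and total RNA, and 0 in the other comparisons of the distribution experiment. The offset moved the median log2 difference of the long loci to 0.0057 in seedlings, 0.051 in total RNA and 0.122 in nuclei between genotypes, to -0.137 and -0.106 between nuclei and total RNA in the wild type and eds4, and to 0.046 for their difference; it removes a trend on length by its construction. Without single libraries these medians ranged from -0.313 to -0.168, -0.625 to -0.243, -0.232 to 0.0613, -0.138 to 0.229, 0.176 to 0.588 and 0.108 to 0.521 in the same order; that of nuclei by genotype changed sign without eds4 nuclei replicate 2, and that of nuclei and total RNA in the wild type without wild type total RNA replicate 2. Of 25 named calls 12 passed under every alternative run.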
